A study of Homo sapiens with 9 samples.

Results

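The genes described here are those of the SR proteins, the heterogeneous nuclear ribonucleoproteins (hnRNPs) and the TRA2 proteins, the main families of RNA-binding splicing regulators. They were taken by symbol from the table of gene levels: every SRSF gene with a number, every gene whose symbol begins with HNRNP apart from 1 pseudogene symbol, and TRA2A and TRA2B. The rule found 40 of the 22295 entries of the table, 12 of them SR genes, 26 hnRNP genes and 2 TRA2 genes. The rule used symbols alone, but these families were chosen with earlier results of these data known, the fall of SRSF3 at day 3 included.

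SR proteins carry an RNA recognition motif and a tail rich in arginine and serine, bind mainly exonic enhancer sequences and favour inclusion of the exon. hnRNPs coat nascent transcripts, and many of them, PTBP1 included, act as repressors of exons or compete with SR proteins for them. Both families are present in all dividing cells, are needed for growth, and control their own levels: many of their genes hold an exon or an intron that, when included, sends the transcript to nonsense-mediated decay (NMD). Neurons and neural progenitors use different sets of these regulators, and the exchange of PTBP1 for its paralog PTBP2 is the textbook case.

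The cells were U251, an established human glioblastoma line, infected with lentivirus and sampled as a mixed population, not as single clones. The 3 libraries of sh-Luci-3d came from cells given a control sh-RNA against luciferase for 3 days, the 3 of sh-Ptbp1-3d from cells given an sh-RNA against PTBP1 for 3 days, and the 3 of sh-Ptbp1-7d from cells given that sh-RNA for 7 days. The study tried 3 sh-RNAs against PTBP1 and went on with the strongest alone. Effects of that sh-RNA on other transcripts and those of the PTBP1 knockdown therefore cannot be told apart. Per the study's methods, neuronal induction medium with forskolin and dorsomorphin replaced the growth medium 2 days after infection. No sh-Luci library of 7 days was analysed here, so in both comparisons with sh-Ptbp1-7d the knockdown, the longer time and the longer stay in the medium cannot be told apart. Both also share libraries with the day 3 comparison. The labels do not say whether the 3 libraries of a group came from separate cultures, so p-values measure the spread between these libraries, which may be technical. In such bulk RNA, fewer cells of a kind and less RNA per cell cannot be told apart.

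Levels are FPKM, the number of fragments relative to transcript length and to the size of the library, as the authors deposited them. How deeply each library was sequenced cannot be read from them, so counting error is not given. Differences were tested with limma on log2(FPKM + 0.1) over the 15551 entries whose mean reached 0.1 FPKM, and every adjusted p below is limma's, by Benjamini-Hochberg over all these entries. A gene passed the test at day 3, when the knockdown is set against its control, with an FDR below 0.05, and in the comparisons with day 7 with an FDR below 0.01. For a single gene, 0.1 is the smallest two-sided p that an exact permutation test of 3 libraries against 3 allows. PTBP1 itself was at 110.7, 111.9 and 124.4 FPKM in sh-Luci-3d, at 66.2, 64.4 and 61.0 FPKM in sh-Ptbp1-3d and at 49.7, 50.7 and 51.0 FPKM in sh-Ptbp1-7d, so the targeted transcript was lower in every knockdown library. Among the listed astroglial and glioma markers, VIM averaged 4168 FPKM in sh-Luci-3d, whereas GFAP stayed between 0.109 and 1.15 FPKM in the 9 libraries and AQP4 at or below 0.0566 FPKM. The neuronal gene STMN2 was listed at 0 in 8 libraries and at 11.5 FPKM in sh-Ptbp1-3d replicate 3, and DCX was at 2.14 FPKM in that library and at most 0.0346 FPKM elsewhere. The count of members between days 3 and 7 and the SRSF3 test at day 3 are therefore also given without it, and most other values include it. Of the blood and immune markers, AIF1 and CD3E were listed at 0 throughout, and the list of 8 summed to between 0.651 and 1.25 FPKM.

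Promoter sequence is shown for 6 genes whose levels moved between days 3 and 7, SRSF3 and SRSF5 among the genes that rose and SRSF1, SRSF6, HNRNPC and HNRNPM among those that fell, because members that moved together may be compared by what lies at their start sites. The sequences are RefSeq windows of 250 bases before to 50 bases after the start, on GRCh38.p14, read along the gene's strand. Capitals mark 5 motifs searched on both strands. They were CCAAT, the site of the factor NF-Y, TGACG, the core of the cyclic AMP response element, GGGCGG, the GC box bound by SP1, CCGGAA, the core bound by ETS factors, and TATAAA, the TATA box. Matches of different motifs do not overlap in these 6 windows. SRSF3 is at chr6:36594112-36594411 (+), SRSF5 at chr14:69766892-69767191 (+), SRSF1 at chr17:58007197-58007496 (-), SRSF6 at chr20:43457646-43457945 (+), HNRNPC at chr14:21269393-21269692 (-) and HNRNPM at chr19:8444725-8445024 (+).
SRSF3: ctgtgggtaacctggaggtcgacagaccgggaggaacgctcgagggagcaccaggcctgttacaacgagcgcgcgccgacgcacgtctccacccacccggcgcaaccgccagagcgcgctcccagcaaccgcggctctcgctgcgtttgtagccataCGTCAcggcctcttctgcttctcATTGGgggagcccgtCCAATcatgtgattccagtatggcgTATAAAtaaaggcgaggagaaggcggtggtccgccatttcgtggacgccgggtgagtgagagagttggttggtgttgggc
SRSF5: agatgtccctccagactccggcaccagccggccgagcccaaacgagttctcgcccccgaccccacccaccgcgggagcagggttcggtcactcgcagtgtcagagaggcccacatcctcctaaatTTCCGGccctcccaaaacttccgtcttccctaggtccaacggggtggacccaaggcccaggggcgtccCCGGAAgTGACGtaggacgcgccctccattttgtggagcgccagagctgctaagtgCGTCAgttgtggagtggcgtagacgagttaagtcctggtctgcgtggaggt
SRSF1: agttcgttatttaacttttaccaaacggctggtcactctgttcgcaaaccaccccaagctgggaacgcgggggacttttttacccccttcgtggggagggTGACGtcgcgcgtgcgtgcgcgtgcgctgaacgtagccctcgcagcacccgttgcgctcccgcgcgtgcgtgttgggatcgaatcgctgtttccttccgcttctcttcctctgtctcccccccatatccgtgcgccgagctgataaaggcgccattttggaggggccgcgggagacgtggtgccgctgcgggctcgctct
SRSF6: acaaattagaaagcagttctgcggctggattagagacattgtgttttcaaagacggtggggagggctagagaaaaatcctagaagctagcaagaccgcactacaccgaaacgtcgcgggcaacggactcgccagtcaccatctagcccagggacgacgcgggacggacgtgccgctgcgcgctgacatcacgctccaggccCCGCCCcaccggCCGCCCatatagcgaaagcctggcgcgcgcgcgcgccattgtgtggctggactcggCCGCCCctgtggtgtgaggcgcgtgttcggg
HNRNPC: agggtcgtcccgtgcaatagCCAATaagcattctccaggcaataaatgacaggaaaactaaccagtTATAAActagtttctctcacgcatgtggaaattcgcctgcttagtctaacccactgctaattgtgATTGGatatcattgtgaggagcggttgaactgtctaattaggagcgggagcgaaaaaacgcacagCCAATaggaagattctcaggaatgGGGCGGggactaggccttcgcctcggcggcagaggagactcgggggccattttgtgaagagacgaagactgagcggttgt
HNRNPM: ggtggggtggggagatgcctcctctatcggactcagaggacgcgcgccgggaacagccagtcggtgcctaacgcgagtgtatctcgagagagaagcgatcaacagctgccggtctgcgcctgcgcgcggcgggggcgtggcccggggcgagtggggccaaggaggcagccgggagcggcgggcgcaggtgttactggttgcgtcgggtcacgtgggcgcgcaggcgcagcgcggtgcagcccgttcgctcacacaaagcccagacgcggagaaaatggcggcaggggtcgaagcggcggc

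The SRSF3 window held a TATA box, CCAAT boxes and the cyclic AMP response core, the HNRNPC window a TATA box, CCAAT boxes and a GC box, and the HNRNPM window none of the 5 motifs. Of the 40 members, 36 had 1 or more such windows, 50 in all. The cyclic AMP response core was found for 20 of these 36 genes, the CCAAT box for 22, the GC box for 24, the ETS core for 8 and the TATA box for 6. Counted by window, 22 of the 50 held the cyclic AMP response core, 25 the CCAAT box, 30 the GC box, 9 the ETS core and 6 the TATA box. Among all 35116 windows of the RefSeq table, 24.55% held the cyclic AMP response core, 34.61% the CCAAT box, 44.95% the GC box, 17.25% the ETS core and 11.53% the TATA box. A gene with several windows had more than 1 chance to hold a motif, and the windows of 1 gene can overlap. Among the members that passed the test between days 3 and 7, the cyclic AMP response core was present for 4 of the 4 that rose and for 2 of the 5 that fell and had a window. The CCAAT box was present for 3 and 2 of them, the GC box for 2 and 2, the ETS core for 1 and 0 and the TATA box for 1 and 1, numbers too small for a comparison. Only HNRNPH3 and HNRNPDL, which rose, had more than 1 window, so the extra chances all lay with the genes that rose. HNRNPH3 did not hold the cyclic AMP response core in all of its windows. These matches describe letters and are neither binding sites nor causes.

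In the control cells the levels of the members spanned from listed zeros to over 200 FPKM. Among the SR genes SRSF2, which binds exonic enhancers and also acts in the release of paused transcription, averaged 116.6 FPKM and was followed by SRSF3, the smallest SR protein, at 105.0 FPKM. SRSF11, SRSF5, SRSF1 and SRSF9 came next, at 80.1, 76.2, 75.6 and 74.7 FPKM, and neighbours in this order overlapped between libraries. SRSF12 was lowest at 0.356 FPKM. Of the hnRNP genes, HNRNPA2B1 averaged 238.0 FPKM, HNRNPC 215.7 FPKM and HNRNPK 204.8 FPKM. HNRNPA2B1 did not overlap with HNRNPC, and from HNRNPC to HNRNPL each of the 8 steps down the order overlapped. HNRNPCL1, HNRNPCL2 and HNRNPCL3, intronless relatives of HNRNPC, were listed at 0 in every library and HNRNPCL4 at 0.00894 FPKM in 1, so 36 of the 40 members were tested.

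Against the control, 3 days of knockdown gave the early differences, and 1 of the 36 members passed the test there, SRSF3, where 0.0322% of all entries did (0.0193% higher and 0.0129% lower in the knockdown). SRSF3 is a splicing factor and mRNA export adaptor described as an oncogene in several tumours, and its poison exon is a classic example of self-regulation through NMD. It was at 109.2, 107.4 and 98.2 FPKM in sh-Luci-3d, at 63.2, 66.4 and 62.5 FPKM in sh-Ptbp1-3d and at 97.6, 105.9 and 94.6 FPKM in sh-Ptbp1-7d. The 3 day 3 knockdown libraries lay below all the other 6, and those of sh-Ptbp1-7d overlapped the control. SRSF3 fell to 61.0% of the control mean at day 3, a log2 fold change of -0.71 (standard error 0.075, adjusted p = 0.00857), and no member passed both the FDR and a fold change above 2, against 0.0129% of all entries. The size varied little over 22 alternative analyses, from -0.76 to -0.68, but the call did not hold in 9 of them, and adjusted p ranged from 0.000347 to 0.0912. It was 0.0648 and 0.0563 without sh-Luci-3d replicate 1 or 2, and 0.0845, 0.0566 and 0.0619 without sh-Ptbp1-3d replicate 1, 2 or 3.

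**Figure D1:**
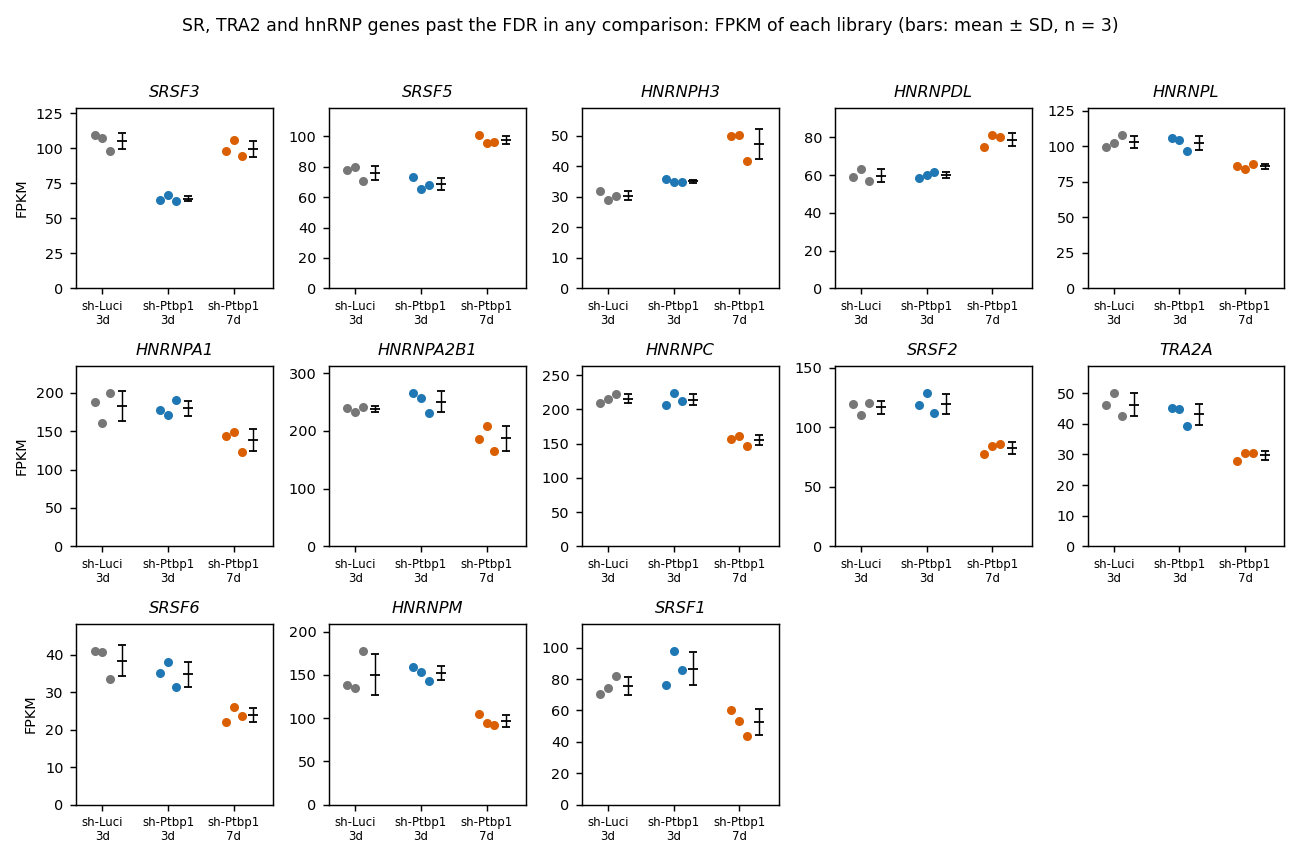
FPKM (vertical axis, from 0) of the 13 members that passed the test in any comparison, 1 panel a gene, with 1 point for each of the 9 libraries and the mean ± SD (n = 3) beside each group. SRSF3 is low in the 3 libraries of sh-Ptbp1-3d only, 62.5 to 66.4 FPKM, whereas in the other 12 panels the libraries of sh-Ptbp1-7d stand apart.

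No other member passed at day 3, and 4 of the 36 had an unadjusted p below 0.05. The median log2 fold change was 0.0081 over the 12 SR genes and 0.048 over the 22 hnRNP genes tested, against 0.010 over all entries. No overlap between the groups was seen for 3 members, SRSF3, SRSF4 and HNRNPH3, and for 10.8% of all entries. SRSF4 was at 59.2, 52.8 and 61.4 FPKM in the control and at 50.2, 50.1 and 47.3 FPKM in sh-Ptbp1-3d (log2 fold change -0.23, adjusted p = 0.592). SRSF7, the SR protein closest to SRSF3 in sequence, was at 33.5 ± 0.919 FPKM (SD, n = 3) in the control and 36.1 ± 2.18 FPKM (SD, n = 3) at day 3, a log2 fold change of 0.10 with an adjusted p of 0.805. Without sh-Luci-3d replicate 3, HNRNPA0 also passed (adjusted p = 0.0104, otherwise 0.717). It was at 14.7, 13.8 and 22.3 FPKM in the control, where the third library stood above the others, and at 20.9, 20.1 and 20.7 FPKM at day 3. At day 7 against the control its log2 fold change was 0.50 (adjusted p = 0.0199), and 0.72 without that library (adjusted p = 5.67e-05).

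Because FPKM relates to length, the SR genes can also be set beside each other as shares of their summed level. In sh-Luci-3d SRSF3 made up 15.1% ± 0.896 (SD, n = 3) of the summed SR FPKM and ranked second. In sh-Ptbp1-3d its share was 9.83% ± 0.163 (SD, n = 3), sixth in the order. SRSF5, the next above, overlapped with it, at 9.55% against 9.71% for SRSF3 in replicate 2. In sh-Ptbp1-7d the SRSF3 share was 15.8% ± 0.694 (SD, n = 3) beside 15.5% for SRSF5 and 13.1% for SRSF2. SRSF3 and SRSF5 overlapped there, and SRSF5 had the larger share in 2 of the 3 libraries. The summed SR level itself was 687 to 704 FPKM in sh-Luci-3d, at 624 to 684 FPKM in sh-Ptbp1-3d and at 605 to 642 FPKM in sh-Ptbp1-7d.

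**Figure D2:**
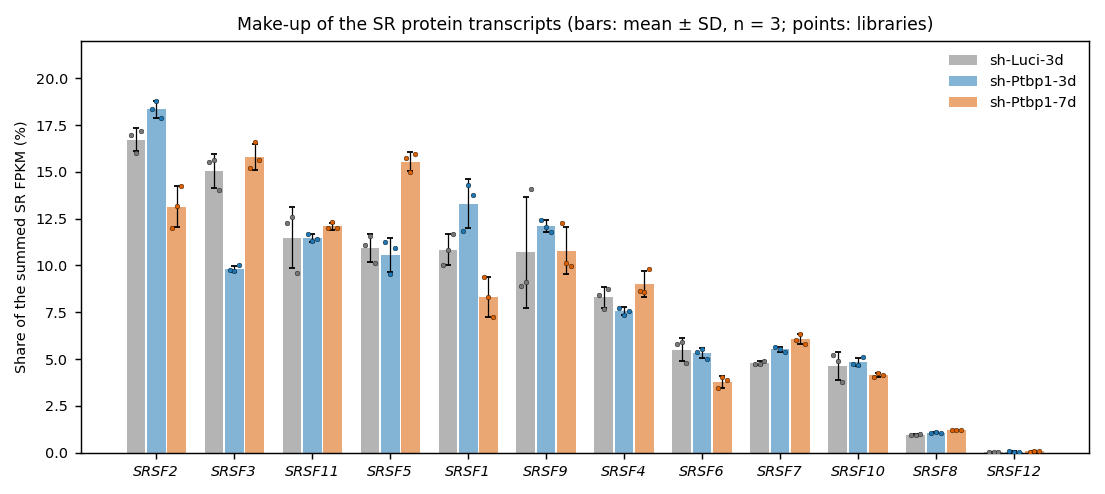
Share of the summed SR FPKM (%) taken by each of the 12 SR genes, as mean ± SD bars (n = 3) with the libraries as points, ordered by the sh-Luci-3d mean and coloured by group. SRSF3 takes 15.1% in sh-Luci-3d, 9.83% in sh-Ptbp1-3d and 15.8% in sh-Ptbp1-7d, and SRSF5 goes from 10.6% at day 3 to 15.5% at day 7 of the knockdown.

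From day 3 to day 7 of the knockdown, 11 of the 36 members passed the test, 4 higher and 7 lower, where 35.8% of all entries passed, 20.3% higher and 15.5% lower. The share of the members, 30.6%, was thus near the background. None passed both the FDR and a fold change above 2, as 14.2% of all entries did. No overlap between the groups was seen for 23 of the 36 members and for 62.3% of all entries. SRSF3, SRSF5, HNRNPH3 and HNRNPDL rose, and SRSF1, SRSF2, SRSF6, TRA2A, HNRNPC, HNRNPM and HNRNPA2B1 fell. Median-ratio scaling gave 4 higher and 13 lower, a correction for GC content and length 3 and 14, TPM 5 and 6, and quantile normalization 4 and 6. Leaving out sh-Luci-3d replicate 3 gave 16 members, adding HNRNPA1, HNRNPAB, HNRNPL, HNRNPUL1 and SRSF10 among the lower ones. This control library, the highest of its group in 20 of 36 members, is in neither group compared here. Its removal left these fold changes as they were and altered the estimate of the spread that the groups share. Leaving out sh-Ptbp1-3d replicate 3, the library with STMN2, gave 12, adding HNRNPH1 (log2 fold change -0.48, adjusted p = 0.00637). In sh-Ptbp1-7d replicate 3 most members were at the low end, with the lowest value of the group in 27 of 36, and without that library 10 passed.

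The SR genes moved in both directions. SRSF3 returned to 155% of its day 3 level, a log2 fold change of 0.63 (standard error 0.075, adjusted p = 5.23e-05), and passed in all 22 alternatives. Against sh-Luci-3d, SRSF3 at day 7 differed by -0.079 on the log2 scale (standard error 0.075, adjusted p = 0.41), with values from -0.18 to 0.0010 over the alternatives. SRSF5, first described as a transcript induced in regenerating liver, was at 78.1, 79.6 and 71.0 FPKM in sh-Luci-3d, at 73.0, 65.3 and 68.1 FPKM in sh-Ptbp1-3d and at 100.9, 95.7 and 96.5 FPKM in sh-Ptbp1-7d. All 3 day 7 libraries stood above the other 6. SRSF5 rose by 0.51 on the log2 scale from day 3 (standard error 0.076, adjusted p = 0.000266).

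SRSF1, the founding SR protein and a known oncogene, was at 70.6, 74.5 and 81.7 FPKM in sh-Luci-3d, at 76.5, 97.7 and 86.0 FPKM in sh-Ptbp1-3d and at 60.4, 53.1 and 43.9 FPKM in sh-Ptbp1-7d. The day 7 libraries were below the other 6, and the log2 fold change from day 3 was -0.73 (standard error 0.125, adjusted p = 0.000688), the largest fall of any member. SRSF2 was at 119.4, 110.1 and 120.4 FPKM, then 118.7, 128.5 and 111.6 FPKM, then 77.2, 84.2 and 86.1 FPKM in the same order of groups. Again no day 7 library reached the others, and SRSF2 fell by 0.53 on the log2 scale (standard error 0.081, adjusted p = 0.000286). SRSF6, a regulator of tau splicing, was at 40.9, 40.6 and 33.6 FPKM in sh-Luci-3d, at 35.0, 37.9 and 31.2 FPKM in sh-Ptbp1-3d and at 22.1, 25.9 and 23.5 FPKM in sh-Ptbp1-7d. It too was lower in every day 7 library, by 0.54 on the log2 scale (standard error 0.107, adjusted p = 0.00173, and 0.0102 without sh-Ptbp1-3d replicate 2). The other 7 SR genes did not pass, with log2 fold changes from -0.27 for SRSF10 to 0.31 for SRSF12, and the median over all 12 was 0.052 against 0.092 over all entries.

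TRA2A and TRA2B, SR-like proteins that bind GAA-rich enhancers and regulate many exons in common, gave different values. TRA2A was at 46.2, 49.96 and 42.6 FPKM in sh-Luci-3d, at 45.3, 44.9 and 39.1 FPKM in sh-Ptbp1-3d and at 27.9, 30.5 and 30.5 FPKM in sh-Ptbp1-7d. It fell by 0.54 on the log2 scale from day 3 (standard error 0.089, adjusted p = 0.000554), with no overlap between the groups. TRA2B was at 54.3, 58.5 and 54.6 FPKM, then 55.4, 62.6 and 54.2 FPKM, then 49.8, 56.5 and 46.5 FPKM, and its groups overlapped (log2 fold change -0.17, standard error 0.091, adjusted p = 0.139). The difference between the 2 genes was not tested.

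Of the 22 hnRNP genes tested, 5 passed from day 3 to day 7, 3 lower and 2 higher. This is 22.7% of them, against 35.8% of all entries, so the hnRNP genes were not called more often than other genes. A negative log2 fold change was seen for 15 of the 22, most of them not past the test, and the median was -0.24 against 0.092 over all entries. The summed hnRNP level was 2013 to 2222 FPKM in sh-Luci-3d, at 2051 to 2181 FPKM in sh-Ptbp1-3d and at 1625 to 1890 FPKM in sh-Ptbp1-7d, without overlap between the days. The median kept its sign in the alternatives, from -0.36 to -0.13.

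HNRNPM, a regulator of splicing in epithelial and mesenchymal cell states, was at 138.5, 134.6 and 177.3 FPKM in sh-Luci-3d, at 159.0, 153.3 and 143.4 FPKM in sh-Ptbp1-3d and at 104.7, 94.1 and 92.2 FPKM in sh-Ptbp1-7d. Every day 7 library was below the other 6, and HNRNPM fell by 0.65 on the log2 scale (standard error 0.108, adjusted p = 0.000564). HNRNPC, which binds uridine tracts and competes there with U2AF, was at 208.9, 215.2 and 222.9 FPKM, then 206.8, 223.5 and 212.2 FPKM, then 157.3, 160.9 and 147.1 FPKM. It fell by 0.47 on the log2 scale (standard error 0.071, adjusted p = 0.000324), also with no overlap. HNRNPC shares sequence with pseudogenes, so its level carries an uncertainty from read assignment. HNRNPA2B1, a reader of RNA modification and a trafficking factor, was at 239.3, 233.0 and 241.8 FPKM, then 265.4, 256.4 and 230.9 FPKM, then 186.7, 208.7 and 165.5 FPKM, with the day 7 libraries below the rest. Its fall of 0.43 on the log2 scale (standard error 0.094, adjusted p = 0.00337) held in 14 of 22 alternatives, and adjusted p was 0.0112 to 0.0183 when sh-Ptbp1-3d replicate 1 or 2 or sh-Ptbp1-7d replicate 1 or 3 was left out.

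HNRNPH3, a member of the family that binds G-rich RNA, was at 31.9, 28.8 and 30.4 FPKM in sh-Luci-3d, at 35.7, 34.9 and 35.0 FPKM in sh-Ptbp1-3d and at 50.1, 50.3 and 41.7 FPKM in sh-Ptbp1-7d. The 3 groups did not overlap. HNRNPH3 rose by 0.42 on the log2 scale from day 3 (standard error 0.087, adjusted p = 0.00218, and 0.0106, 0.0123 and 0.0136 without sh-Ptbp1-3d replicate 2 or sh-Ptbp1-7d replicate 1 or 2). HNRNPDL, a paralog of the mRNA decay factor HNRNPD, was at 59.3, 63.2 and 56.7 FPKM, then 58.4, 60.1 and 61.6 FPKM, then 74.7, 81.2 and 80.1 FPKM, with the day 7 libraries above the rest. It rose by 0.39 on the log2 scale (standard error 0.072, adjusted p = 0.00111), while HNRNPD gave -0.25 (adjusted p = 0.126). The HNRNPDL call was lost under the GC and length correction (adjusted p = 0.0109).

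HNRNPK, which binds cytosine-rich RNA and was among the 3 highest hnRNP genes, was at 209.9, 210.3 and 194.4 FPKM in sh-Luci-3d, at 199.8, 210.1 and 197.5 FPKM in sh-Ptbp1-3d and at 185.6, 183.4 and 164.6 FPKM in sh-Ptbp1-7d. Its day 7 libraries lay below the other 6, but the log2 fold change of -0.19 did not pass (adjusted p = 0.0609). The entry HNRNPUL2-BSCL2, a readthrough of adjoining genes that shares exons with both, was at 0.656, 12.1 and 8.31 FPKM in sh-Luci-3d, at 9.29, 7.84 and 8.16 FPKM in sh-Ptbp1-3d and at 11.7, 11.1 and 8.18 FPKM in sh-Ptbp1-7d. Its largest log2 fold change, 1.27 at day 7 against the control, was 0.027 without the first control library and did not pass (adjusted p = 0.201).

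**Figure D3:**
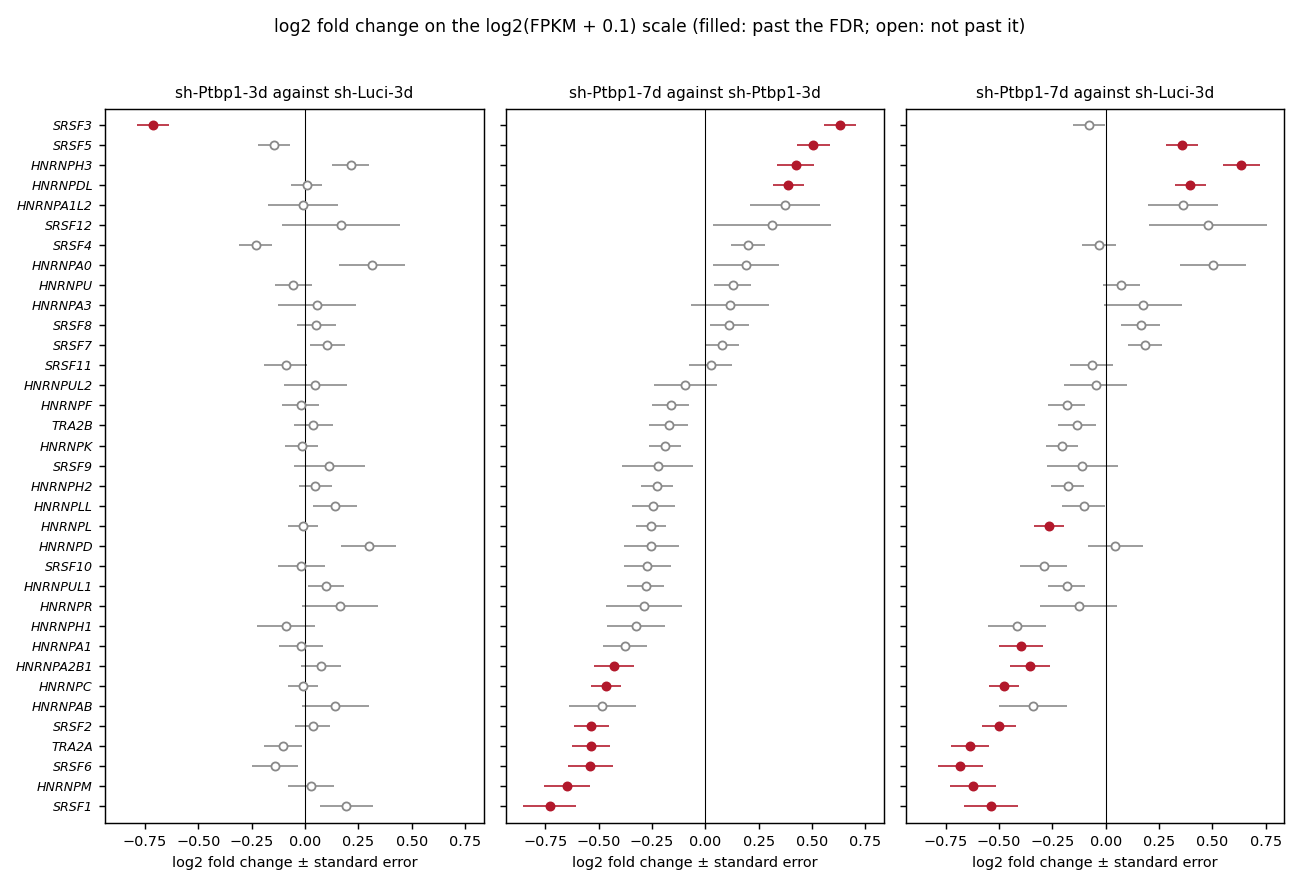
Log2 fold change with standard error (horizontal axis, log2(FPKM + 0.1) scale) of 35 of the 36 tested members in the 3 comparisons, filled where the gene passed the FDR. The readthrough entry HNRNPUL2-BSCL2, with a standard error of 0.784, is left out. SRSF3 is the filled point of the first panel, at -0.71, lies at 0.63 among the 11 filled points of the second, and is open at -0.079 in the third.

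Against sh-Luci-3d, the day 7 libraries gave 12 of 36 members past the test, 3 higher and 9 lower, where 35.6% of all entries passed, 20.6% higher and 15.0% lower. No member passed both the FDR and a fold change above 2 (14.6% of all entries), and 17 of 36 showed no overlap between the groups (55.9% of all entries). The sh-Ptbp1-7d libraries are the same as in the comparison by day, and the values are given side by side for that reason alone. SRSF6 stood at 62.2% of the control mean (log2 fold change -0.68, adjusted p = 0.000368), TRA2A at 64.1% (-0.64, adjusted p = 0.000165) and HNRNPM at 64.6% (-0.62, adjusted p = 0.000735). HNRNPH3 stood at 156.0% of the control mean (0.64, adjusted p = 0.000141), HNRNPDL at 131.7% (0.40, adjusted p = 0.000946) and SRSF5 at 128.2% (0.36, adjusted p = 0.00247, and 0.013 without sh-Ptbp1-7d replicate 1). HNRNPA1, the most studied hnRNP and 1 with many pseudogene copies, and HNRNPL, a binder of CA repeats, passed here and not against day 3. HNRNPA1 was at 187.7, 160.5 and 199.2 FPKM in sh-Luci-3d and at 143.7, 149.1 and 122.9 FPKM in sh-Ptbp1-7d, a log2 fold change of -0.40 (adjusted p = 0.00832), and its value against day 3 was -0.38 (adjusted p = 0.0109). HNRNPL was at 99.3, 102.1 and 107.8 FPKM and at 86.0, 84.1 and 87.2 FPKM, a log2 fold change of -0.26 (adjusted p = 0.00933). HNRNPA1 passed in 6 of 22 alternatives and HNRNPL in 10, with adjusted p up to 0.0313 and 0.0411 when 1 library was left out. Only the removal of sh-Luci-3d replicate 2 kept the HNRNPA1 call, and only that of sh-Luci-3d replicate 3 the HNRNPL call. In the same comparison HNRNPA2B1 passed in 8 of 22 alternatives and SRSF1 in 13. SRSF1 missed the threshold without sh-Luci-3d replicate 2 or 3 or sh-Ptbp1-7d replicate 2 or 3 (adjusted p 0.0124 to 0.0168), and HNRNPA2B1 without any library other than sh-Ptbp1-7d replicate 2 (0.0113 to 0.0321).

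The annotation gives what these genes share beyond their names. In GENCODE v29, 12 of the 12 SR genes and 14 of the 26 hnRNP genes had at least 1 transcript annotated to NMD, against 35.85% of 19359 protein-coding entries. Those entries were not matched to the members by level or by number of annotated transcripts, so the shares are not like for like. SRSF3, on chromosome 6 from 36594353 to 36605600 (GRCh38), had 2 such transcripts among 8. The FPKM of a gene adds its productive and its NMD transcripts, so a change in the choice between them was not measured here. Of 10 factors of the NMD pathway itself, 5 passed from day 3 to day 7, all higher, where 35.8% of all entries passed and 20.3% were higher. The median over the list was 0.38. SMG5, which helps to recruit decay enzymes, went from 27.2, 26.1 and 25.3 FPKM at day 3 to 42.5, 40.9 and 40.8 FPKM at day 7, a log2 rise of 0.66 (adjusted p = 3.23e-05). UPF1, UPF2 and SMG6 rose by 0.43 to 0.55, of which the SMG6 call held in 22 of 22 alternatives, that of UPF1 in 13 and that of UPF2 in 15. The UPF1 and UPF2 calls were lost without any 1 of the sh-Ptbp1-3d libraries and without sh-Ptbp1-7d replicate 1 or 2. SMG1, UPF3A and UPF3B had log2 fold changes of -0.44, -0.37 and -0.27, which did not pass (adjusted p = 0.0848, 0.0128 and 0.0159), although their groups did not overlap.

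Of 9 kinases of the SR proteins, 4 passed between days 3 and 7, 3 higher and 1 lower, a share of 44.4% beside the 35.8% of all entries. The nuclear kinases CLK1 and CLK4 rose by 0.60 and 0.58 on the log2 scale, and DYRK1A by 0.61, from 7.46, 6.23 and 7.01 FPKM to 11.7, 11.7 and 8.60 FPKM (adjusted p = 0.00401). The cytoplasmic kinase SRPK1, which phosphorylates SR proteins for nuclear import, fell by 0.45 (adjusted p = 0.00395), from 27.7, 28.1 and 25.5 FPKM to 20.8, 19.7 and 19.1 FPKM. The CLK4 call held in 22 of 22 alternatives, those of CLK1, DYRK1A and SRPK1 in 17, 16 and 15. Those of DYRK1A, CLK1 and SRPK1 were each lost on leaving out single knockdown libraries: sh-Ptbp1-3d replicate 2 or 3 or sh-Ptbp1-7d replicate 1 or 2 for DYRK1A, sh-Ptbp1-3d replicate 1 or 3 or sh-Ptbp1-7d replicate 3 for CLK1, and sh-Ptbp1-3d replicate 1 or 2 or sh-Ptbp1-7d replicate 2 or 3 for SRPK1. Of 3 nuclear import receptors, TNPO3, which carries SR proteins, gave a log2 fold change of 0.059 (adjusted p = 0.648). The transportins TNPO2 and TNPO1, which carry hnRNP proteins, gave 0.41 (adjusted p = 0.00137) and -0.63 (adjusted p = 0.0364), and TNPO2 alone passed. Of 17 SR-related splicing factors, 4 passed, or 23.5%, among them LUC7L, a U1-associated protein, higher by 0.46 (adjusted p = 0.00165), and U2AF2, the polypyrimidine tract reader of the 3′ splice site, lower by 0.68 (adjusted p = 0.000723). At day 3, where 0.0322% of all entries passed, limma called 0 genes in each of these lists and among the NMD factors. At an unadjusted p below 0.05 there was 1 among the 17 SR-related factors and 0 in the other lists.

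Of 13 proteins with hnRNP function under other symbols, 2 passed at day 3 and again from day 3 to day 7. They were PTBP1, the gene that the sh-RNA targets, and PTBP2. This was 15.4% of the list, where 0.0322% of all entries passed at day 3 and 35.8% from day 3 to day 7. The day 3 share is no result about the list, since PTBP1 was the target and the list was chosen with earlier results known. PTBP2 was at 6.65, 8.16 and 4.80 FPKM in sh-Luci-3d, at 17.0, 17.1 and 19.4 FPKM in sh-Ptbp1-3d and at 25.6, 27.0 and 28.7 FPKM in sh-Ptbp1-7d, with no overlap, while PTBP1 took the opposite course. The day 3 log2 fold changes were 1.46 for PTBP2 (adjusted p = 0.00857) and -0.85 for PTBP1 (adjusted p = 0.00314), calls that held in 14 and 20 of 22 alternatives. From day 3 to day 7 they were 0.60 for PTBP2 (adjusted p = 0.00931) and -0.34 for PTBP1 (adjusted p = 0.00283). The PTBP1 call held in 18 of 22 alternatives, and the PTBP2 call in 9, with adjusted p up to 0.0441. PTBP2 did not pass when any 1 of the sh-Ptbp1-3d or sh-Ptbp1-7d libraries or sh-Luci-3d replicate 1 was left out, nor PTBP1 without replicate 1 or 2 of either knockdown group. The Sm proteins, the common core of spliceosomal snRNPs, gave 6 of 8 past the test from day 3 to day 7, 5 lower and 1 higher, beside 35.8% of all entries. SNRPB fell from 157.6, 149.5 and 152.1 FPKM to 84.7, 80.7 and 84.1 FPKM (log2 fold change -0.88, adjusted p = 0.000143). Its neuronal counterpart SNRPN rose from 93.9, 85.3 and 91.5 FPKM to 170.1, 166.2 and 179.6 FPKM (0.93, adjusted p = 1.25e-05).

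**Figure D4:**
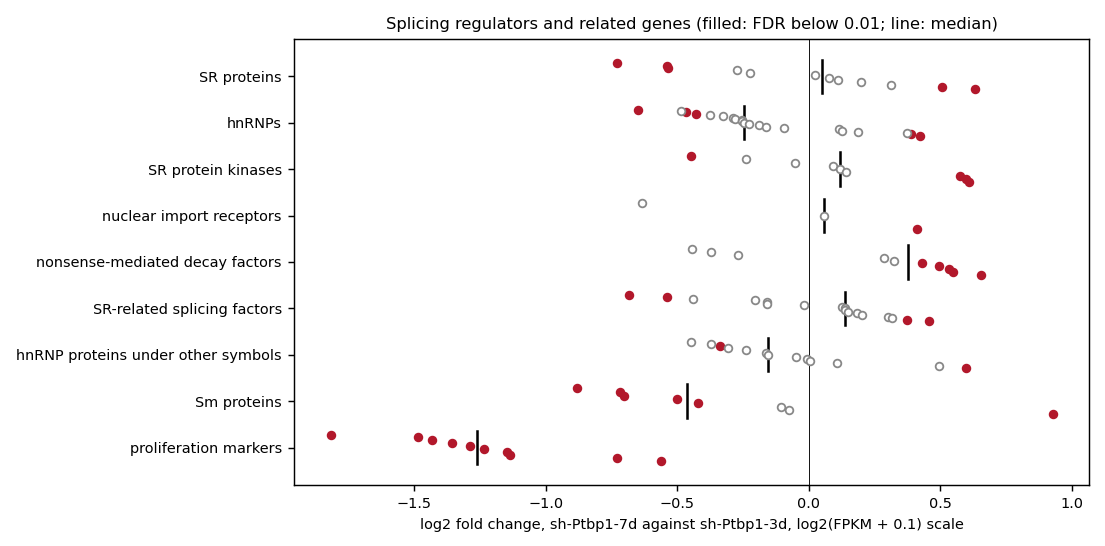
Log2 fold change from sh-Ptbp1-3d to sh-Ptbp1-7d (horizontal axis, log2(FPKM + 0.1) scale) of each tested gene in 9 lists, filled where the FDR was below 0.01, with the median of each list as a line. The readthrough entry is left out of the hnRNP row. All 10 proliferation markers lie below 0 with a median of -1.26, and the 10 NMD factors have a median of 0.38.

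Markers of other states moved between the same libraries as the splicing regulators. All 10 proliferation markers were lower at day 7, with a summed level of 369 to 412 FPKM in sh-Luci-3d, at 363 to 384 FPKM in sh-Ptbp1-3d and at 158 to 169 FPKM in sh-Ptbp1-7d, and PLK1 fell by 1.82 on the log2 scale (adjusted p = 2.9e-07). At day 3, where SRSF3 fell, 0 of the 10 passed limma's test and 1 had an unadjusted p below 0.05. Of the 9 astroglial and glioma markers tested, 5 passed from day 3 to day 7, where 35.8% of all entries did. VIM fell by 1.91 (adjusted p = 9.79e-08), CD44 by 1.41 (adjusted p = 1.12e-06) and EGFR by 0.82 (adjusted p = 0.00119). SLC1A3 rose by 1.89 (adjusted p = 9.32e-06). The low S100B rose by 2.08 from 0.180, 0.0942 and 0.0705 FPKM to 0.933, 0.794 and 0.663 FPKM (adjusted p = 0.00202). Of the 8 neuronal markers tested, 3 passed: MAP2 rose by 0.94 (adjusted p = 0.00058) and TUBB3 and NEFL fell by 1.42 and 1.22. RBFOX3, another neuronal marker, was at most 0.191 FPKM and too low to be tested. The summed neuronal level was 488 to 525, 560 to 575 and 256 to 264 FPKM in the 3 groups, and most of it was TUBB3 and NEFL. TUBB3 averaged 261.3, 316.9 and 118.2 FPKM and NEFL 213.5, 216.2 and 92.7 FPKM, so the sum hardly reflects the other neuronal markers. Of the 8 tested, 2 had a positive log2 fold change from day 3 to day 7, MAP2 and SNAP25. SNAP25 gave 0.72 without overlap between the days but did not pass (adjusted p = 0.0177). The part of cell cycle and cell state in the levels of the splicing regulators was not tested.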

How the data were processed

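Gene levels from RNA-seq of 9 libraries were used, 3 in each of the groups that the labels give: the control at 3 days and the PTBP1 knockdown at 3 and at 7 days. The authors filtered Illumina reads, compared them to a reference and deposited FPKM per entry for each library. The submitters' processing notes name HISAT2 and GRCh38, and the counting program is not given in the sources used here. FPKM values had no whole-read steps, so count tests were not used.

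log2(FPKM + 0.1) of the 15551 entries with a mean of at least 0.1 FPKM was fitted in R 4.3.3 by limma 3.58.1, with the 3 groups as the terms of a single model over the 9 libraries and an intensity trend. The FDR alone decided a call, at the thresholds of the study's methods, with 0.01 for the day 7 libraries against the control as well. Per-library values were set for members past the day 3 FDR, up to 6 rises and 6 falls from day 3 to day 7, the 3 highest SR and hnRNP genes, TRA2A, TRA2B and members past a fold of 2, and for the largest rise and fall past the FDR in each list of related genes. Other genes were named after their values were seen. The members and the lists were chosen with earlier results of these data known. Alternatives were other pseudocounts, filters, scalings and thresholds, a fit without trend or of 2 groups, a replicate block, a GC and length correction and leaving out each library. Individual values of 2 listed genes are not reported here. Annotation was GENCODE v29, and promoter windows were RefSeq's.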

Additional observations from a re-analysis of the deposited data

How the results depend on the processing

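The count of members past the FDR at day 3, 1 in the analysis reported, was 0 under quantile normalization, in the fit of the 2 groups alone, without the trend and with the replicate block, and ran from 0 to 2 when single libraries were left out. From day 3 to day 7 the count of 11 became 17 under median-ratio scaling and 17 under the GC and length correction, for which 87.28% of entries had values, and ran from 8 to 16 when single libraries were left out. At day 7 against the control the count of 12 was 8 to 17 over all alternatives. The median log2 fold change of all entries from day 3 to day 7 was 0.092 as reported, 0.19 in TPM, 0.0096 under median-ratio scaling and -0.0087 under quantile normalization. The SR median over the same days, 0.052, changed sign with these, at 0.15 in TPM and -0.036 under median-ratio scaling, so it gives no direction. No call changed sign. The causes of these differences were not tested.

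Libraries of different groups share replicate numbers, but deviations of same-numbered libraries correlated at -0.032 to 0.051, so the numbers were not taken as a pairing. With the replicate block, 0, 11 and 8 members passed in the 3 comparisons, and SRSF3 at day 3 had an adjusted p of 0.0583.

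FPKM without depth gives no counting error, low members such as SRSF12 are the least certain, and isoforms are merged.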
